A study of Mus musculus with 32 samples.

Results

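Aminoacyl-tRNA synthetases are the enzymes that load each amino acid onto its tRNA. The group described here was a fixed list of 36 synthetase genes, of 24890 genes in the deposited tables. Names ending in 2 were taken as mitochondrial (16 genes) and the others as cytosolic (20 genes). All 36 were present, and all 36 were among the 15036 genes that passed the filter on low counts. No member had fewer than 140 counts in any library, and none was listed at 0.

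The samples were E14 mouse embryonic stem cells of wild-type genotype, kept on gelatin-coated plates. Both arms received serum, LIF and the inhibitors CHIR99021 (of GSK3) and PD0325901 (of MEK). One arm, NrESC, also received 10 µM T0901317, which activates liver X receptors (LXR). The untreated arm, ESC, served as the control of equal passage. Polyadenylated RNA was sequenced at passages 0, 2, 4, 6, 8, 10, 12 and 14 with 2 libraries in each of the 16 groups of arm and passage, 32 libraries in all. Separate cultures are not stated for the 2 libraries of a group, so p-values measure only the spread between these libraries, which may be technical. NrESC of passage 0 is labelled as treated, with no duration given. A single cell line was used. In bulk RNA of this kind, fewer cells of a type and less RNA per cell cannot be told apart.

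Library totals ran from 24989651 to 45818061 counts in ESC and from 25062538 to 50463483 in NrESC. The LXR target genes Abca1 and Abcg1, both lipid exporters, were higher in NrESC in the mean of 8 passages by 3.10 and 4.18 on the log2 scale. All 13 markers of embryonic stem cells on the list used averaged at least 1 TPM in both arms, with sums of 10233 to 11683 TPM in ESC and 10804 to 13385 in NrESC. Most single markers did not follow the sums. Dppa5a, the most abundant, had 3905 to 5221 TPM in ESC and 5492 to 8198 in NrESC, and Pou5f1 had 1991 to 2341 and 2122 to 2428. Both ends of the range were lower in NrESC for Nanog (902 to 1463 and 696 to 1064 TPM), Sox2, Zfp42, Esrrb, Klf2, Klf5, Tdgf1 and Utf1. Klf4, Tfcp2l1 and Fgf4 had a lower lowest and a higher highest value in NrESC. Summed markers of fibroblasts (7 genes) reached 8.35 to 17.0 TPM in ESC and 9.68 to 21.4 in NrESC, and in each arm 2 of the 7 averaged 1 TPM or more. The 4 endoderm, 3 trophectoderm and 2 neuroectoderm markers summed to at most 9.75 TPM in any library. The part of these low signals in the results below was not tested. NrESC of passage 8 differed from ESC at more genes (69.8% of those tested) than NrESC of any other passage (32.4% to 55.5%), and the results are given with and without that passage.

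As background, cytosolic synthetases charge tRNAs for the ribosomes of the cytoplasm, and several of them sit together in a multi-tRNA synthetase complex with scaffold proteins. Mitochondrial synthetases are separate nuclear-encoded enzymes in most cases, imported to charge the tRNAs encoded by mitochondrial DNA. A few genes serve both compartments: the glycine and lysine enzymes (Gars, Kars) are each made from 1 gene for both, and the mitochondrial glutamine tRNA is charged by an indirect route. When amino acids run short or another stress phosphorylates the initiation factor eIF2 alpha, the transcription factor ATF4 is translated, and it induces amino acid transporters, biosynthetic enzymes and many cytosolic synthetases through CEBP-ATF composite elements. A list of 13 cytosolic members commonly given as induced by ATF4 (Aars, Cars, Eprs, Gars, Iars, Lars, Mars, Nars, Sars, Tars, Vars, Wars and Yars) is used below to divide the cytosolic class. This list was put together with results of these samples known.

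The promoters of these genes can be read for that element. RefSeq promoter windows of build GRCm38.p6 were matched to 27 of the 36 members, 13 cytosolic and 14 mitochondrial. The window was set at 250 bases before to 50 after the start of transcription. In Iars and Yars the stretches printed below are shorter after the motif than before it. The sequence searched may therefore have ended before 50 bases. The motif TGATGNAA, the core letters of the CEBP-ATF element, was searched on both strands. It was found in 5 of 13 cytosolic windows (Aars, Gars, Iars, Tars and Yars), in 0 of 14 mitochondrial windows and in 3.97% of all 32851 windows in the table. Counted by gene, 4.51% of 27025 genes had a window with the motif. All 5 belong to the ATF4 list, of which 8 had a window, and 0 of the 5 other cytosolic windows held the motif. Those 5 genes rose in NrESC (values below), but Eprs, Mars and Sars, listed genes with a window that lacked the motif, rose as well. Sars, without the motif, rose the most of the list, and Tars, with it, the least. The windows around the match are printed 5′ to 3′ along the gene's strand with the motif in capitals, because the 5 genes are the members with a match.
Aars: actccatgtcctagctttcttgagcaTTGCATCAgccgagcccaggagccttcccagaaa
Gars: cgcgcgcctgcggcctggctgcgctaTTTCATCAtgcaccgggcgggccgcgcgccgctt
Iars: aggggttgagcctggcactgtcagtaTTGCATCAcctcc
Tars: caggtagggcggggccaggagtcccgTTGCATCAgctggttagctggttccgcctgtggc
Yars: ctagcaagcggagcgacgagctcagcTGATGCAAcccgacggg
The stretch of Aars lies at chr8:111033704-111033763 on the plus strand, with the motif at -112 to -105 from the start, and Aars has a second match at 10 to 17. Gars lies at chr6:55037945-55038004 (plus strand, motif at -30 to -23) and Iars at chr13:49682111-49682149 (plus strand, motif at 8 to 15). Tars lies at chr15:11399640-11399699 (minus strand, motif at -15 to -8) and Yars at chr4:129189880-129189922 (plus strand, motif at 4 to 11). In Yars the motif reads along the gene's strand, and in the other 4 it is on the opposite strand. With the 250 bases before the start alone, 3 cytosolic windows (Aars, Gars and Tars) held the motif, against 3.45% of all windows. The E-box CACGTG, whose letters do not occur in the stretches printed above, was found in 4 cytosolic windows (Aars, Farsb, Iars and Tars) and 1 mitochondrial window (Ears2), against 7.15% of all windows. The CRE palindrome TGACGTCA, the NRF1 palindrome and the LXR element (a direct repeat spaced by 4 bases) were in no member's window, against 1.79%, 0.971% and 0.0152% of all windows. A match is a description of letters, and no binding was measured.

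Transcript levels set the classes apart before any treatment. On the TPM scale, which corrects for length and so allows genes to be compared, each of the 20 cytosolic synthetases had a higher mean over the ESC libraries than each of the 16 mitochondrial ones. The lowest cytosolic mean was that of Wars, the tryptophan enzyme, at 88.2 TPM, and the highest mitochondrial mean was that of Iars2, the isoleucine enzyme, at 54.5 TPM. The leading genes in ESC were Kars (522 TPM), Aars (480 TPM) and Gars (438 TPM), 2 of which serve both compartments. Wars2 was the lowest at 3.08 TPM. In NrESC the first 3 places were taken by Aars (641 TPM), Gars (601 TPM) and Kars (546 TPM).

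Summed over its 20 genes, the cytosolic class reached 3624, 4062 and 4256 TPM (lowest, median and highest of 16 libraries) in ESC and 4393, 4840 and 5313 TPM in NrESC. Every NrESC library lay above every ESC library. The means over 8 passages were 4017 ± 191 and 4820 ± 302 TPM (SD, n = 8 passages). The excess in NrESC came to 11.7% at passage 0, between 16.7% and 22.2% at the 6 passages other than 0 and 8, and 31.0% at passage 8. When the class was divided by the ATF4 list, made with results of these samples known, the excess lay in the 13 listed genes. They summed to 2609 ± 176 TPM in ESC and 3401 ± 282 in NrESC, against 1408 ± 35.0 and 1419 ± 31.7 TPM for the 7 others. The libraries of those 7 overlapped between the arms (1341 to 1462 TPM in ESC, 1365 to 1483 in NrESC). The 16 mitochondrial genes summed to 412 ± 16.8 TPM in ESC and 414 ± 20.8 in NrESC, and the libraries again overlapped (388 to 452 and 379 to 459 TPM). By passage the mitochondrial sum in NrESC ran from 5.10% below ESC, at passage 8, to 3.68% above it, at passage 12.

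**Figure D1:**
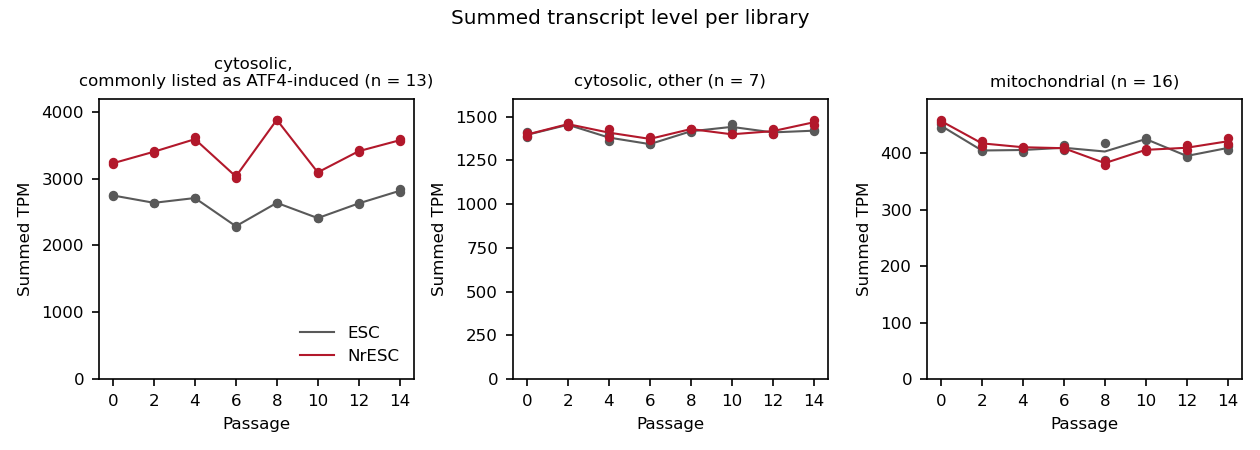
Summed TPM of the 13 cytosolic synthetases commonly listed as ATF4-induced (left), the 7 other cytosolic synthetases (middle) and the 16 mitochondrial synthetases (right) by passage; each point is 1 library, lines join the means of 2 libraries, and each axis starts at 0. The arms are apart at every passage on the left, with a step up in NrESC at passage 8, and they overlap in the middle and on the right.

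Gene by gene, the mean difference between the arms over 8 passages was tested with edgeR's quasi-likelihood test, and a gene was called at a Benjamini-Hochberg adjusted p under 0.05 over all 15036 genes. Of the 36 synthetases 35 were called, against 78.9% of all genes. Of the cytosolic synthetases, 18 of 20 were higher in NrESC and 2 lower (Dars and Farsa), where 39.1% of all genes were higher and 39.8% lower. Of the mitochondrial ones 8 of 16 were higher, 7 lower and 1 (Pars2, 0.05, adjusted p = 0.104) was not called. The mitochondrial shares are near those of all genes. The median difference was 0.26 on the log2 scale for the cytosolic class, 0.06 for the mitochondrial class and -0.00 for all genes tested. A rise of 1.2-fold or more was called for 10 cytosolic and 0 mitochondrial members (19.1% of all genes), and a fall of that size for 0 cytosolic members and 1 mitochondrial member, Mars2 (17% of all genes). Without passage 8, 17 cytosolic members were higher and 2 lower, and 9 mitochondrial members were higher and 6 lower (37.9% and 37.5% of all genes). With passage as the unit of replication, which uses the spread between passages, 14 cytosolic members were higher and 2 lower (28.3% and 27.2% of all genes). By that model 5 mitochondrial members were higher and 5 lower.

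**Figure D2:**
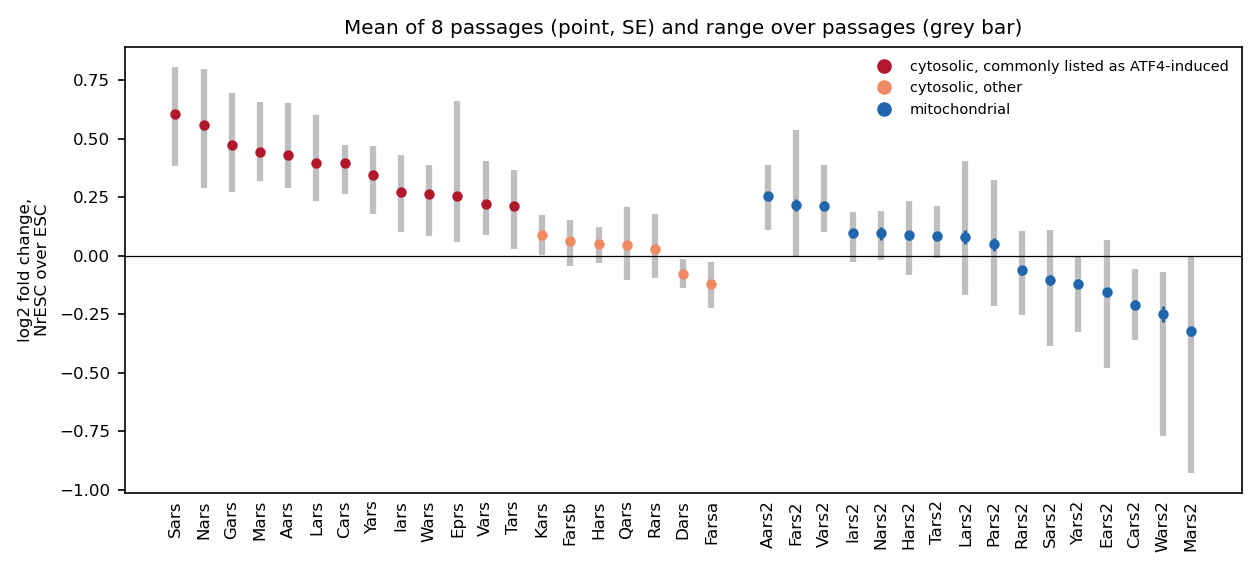
Log2 fold change, NrESC over ESC, of each synthetase in the mean of 8 passages (points, with SE bars mostly smaller than the point) and its range over the 8 passages (grey bars). The 13 cytosolic members on the ATF4 list lie at 0.21 to 0.61, the 7 other cytosolic members between -0.12 and 0.09, and the mitochondrial members on both sides of 0.

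All 13 members of the ATF4 list were higher in NrESC, by 0.21 to 0.61 with a median of 0.39, and 10 of them by 1.2-fold or more. All 13 were called with passage as the unit as well. The list was put together with results of these samples known and is no independent evidence of direction. Sars, the serine enzyme, had 185, 248 and 295 CPM (lowest, median and highest of 16 libraries, scaled by TMM) in ESC and 298, 375 and 447 CPM in NrESC. The lowest NrESC library, at passage 10, was above the highest ESC library, at passage 0. The difference was 0.61 (SE 0.0086, adjusted p = 1.5e-41, edgeR), with a higher level at 8 of 8 passages. Nars, the asparagine enzyme, had 324, 371 and 434 CPM in ESC and 483, 547 and 629 CPM in NrESC, again with no overlap of the arms. Its difference was 0.56 (SE 0.0079, adjusted p = 1.9e-41, edgeR).

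The glycine enzyme Gars had 494 to 622 CPM in ESC and 688 to 917 in NrESC (difference 0.47, SE 0.0076). Aars, the alanine enzyme, had 894 to 1120 CPM in ESC and 1164 to 1616 in NrESC (0.43, SE 0.0076). Neither gene's arms overlapped. The same separation of every NrESC library from every ESC library held for Lars (0.40), Cars (0.39), Iars (0.27) and Eprs (0.25), the enzymes for leucine, cysteine, isoleucine, and glutamate with proline. In all, 8 cytosolic and 0 mitochondrial members had every NrESC library above every ESC library, as did 1.66% of all genes. The arms of Mars, the methionine enzyme, overlapped (197 to 278 CPM in ESC, 257 to 354 in NrESC), although its difference was 0.44 (SE 0.0091), called at 8 of 8 passages. The remaining genes of the list were Yars (0.35), Wars (0.26), Vars (0.22) and Tars (0.21). By annotation, 15.1% of the exonic bases of Aars overlap other genes, among them Exosc6 on the same strand. Mars shares 1.99% with Ddit3, on the opposite strand, and the strand setting of the counts is not given in the sources used here.

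The 7 cytosolic members outside the ATF4 list moved little. Kars, the lysine enzyme, had 543, 574 and 624 CPM in ESC and 577, 616 and 648 CPM in NrESC, overlapping between arms, and was higher by 0.09. Farsb (0.06), Hars (0.05), Qars (0.05) and Rars (0.03) were called higher, and Dars (-0.08) and Farsa (-0.12) lower. With passage as the unit only Kars, Dars and Farsa of these 7 were called. The subunits of phenylalanyl-tRNA synthetase, a tetramer of the products of Farsa and Farsb, thus had values of opposite sign. Farsa had 121, 131 and 143 CPM in ESC and 107, 121 and 139 CPM in NrESC, with overlap.

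The multi-tRNA synthetase complex holds 8 of the listed enzymes (Dars, Eprs, Iars, Kars, Lars, Mars, Qars and Rars). Of these 7 were higher and 1 lower, with a median of 0.17, against 5880 higher and 5988 lower of all 15036 genes. The 3 largest differences (Mars, Lars and Iars) belong to the ATF4 list. Qars and Rars, among the 7, were not called with passage as the unit (adjusted p = 0.255 and 0.537, edgeR). The scaffold proteins of the complex did not rise: Aimp1 was at 0.01 (SE 0.012, adjusted p = 0.629, edgeR), Aimp2 fell by 0.10 and Eef1e1 by 0.07. Passage 8 weighed on the fall of Aimp2, which had 37.6 and 36.1 CPM there in NrESC. The other NrESC libraries had 45.8 to 55.3 CPM of Aimp2. By structural class, all 9 class I cytosolic members were higher (median 0.27), as were 8 of 10 class II members (median 0.15), beside the same counts of all genes. Eprs was left out of that division, because its protein joins a class I and a class II enzyme.

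Among the mitochondrial members the values spread to both sides. Aars2, the alanine enzyme, had 54.6, 61.4 and 84.4 CPM in ESC and 58.6, 75.5 and 96.1 CPM in NrESC. The arms overlapped over all passages, but Aars2 was called higher within each of the 8 passages, the only mitochondrial member to be so. Its difference was 0.25 (SE 0.015, adjusted p = 1.7e-19, edgeR). Fars2 (phenylalanine, 0.22) and Vars2 (valine, 0.21) followed, and Iars2 (0.10), Nars2 (0.10), Hars2 (0.09), Tars2 (0.09) and Lars2 (0.08) had smaller values. Lars2 depended on single libraries: its ESC libraries of passage 8 had 151 and 102 CPM, and its difference was 0.12 without the first and 0.04 without the second (adjusted p = 0.0582, edgeR). It was also not called without the first NrESC library of passage 6. For Iars2, 24.2% of exonic bases overlap other genes, and for Fars2 and Vars2 10.7% and 8.52%.

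Mars2, the methionine enzyme of mitochondria, had 22.2, 28.4 and 31.5 CPM in ESC and 14.7, 23.6 and 26.3 CPM in NrESC. The lowest NrESC libraries were both of passage 8, and the arms overlapped through the ESC libraries of passage 0. The difference was -0.32 (SE 0.020, adjusted p = 2.5e-18, edgeR) and -0.24 without passage 8. Wars2 (tryptophan) fell by 0.25, and by 0.17 without passage 8. Cars2 (cysteine) fell by 0.21, Ears2 (glutamate) by 0.16, Yars2 (tyrosine) by 0.12, Sars2 (serine) by 0.10 and Rars2 (arginine) by 0.06. Rars2 was no longer called without passage 8 (-0.03, adjusted p = 0.179, edgeR), while Pars2 was then called higher (0.09, adjusted p = 0.0055, edgeR).

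**Figure D3:**
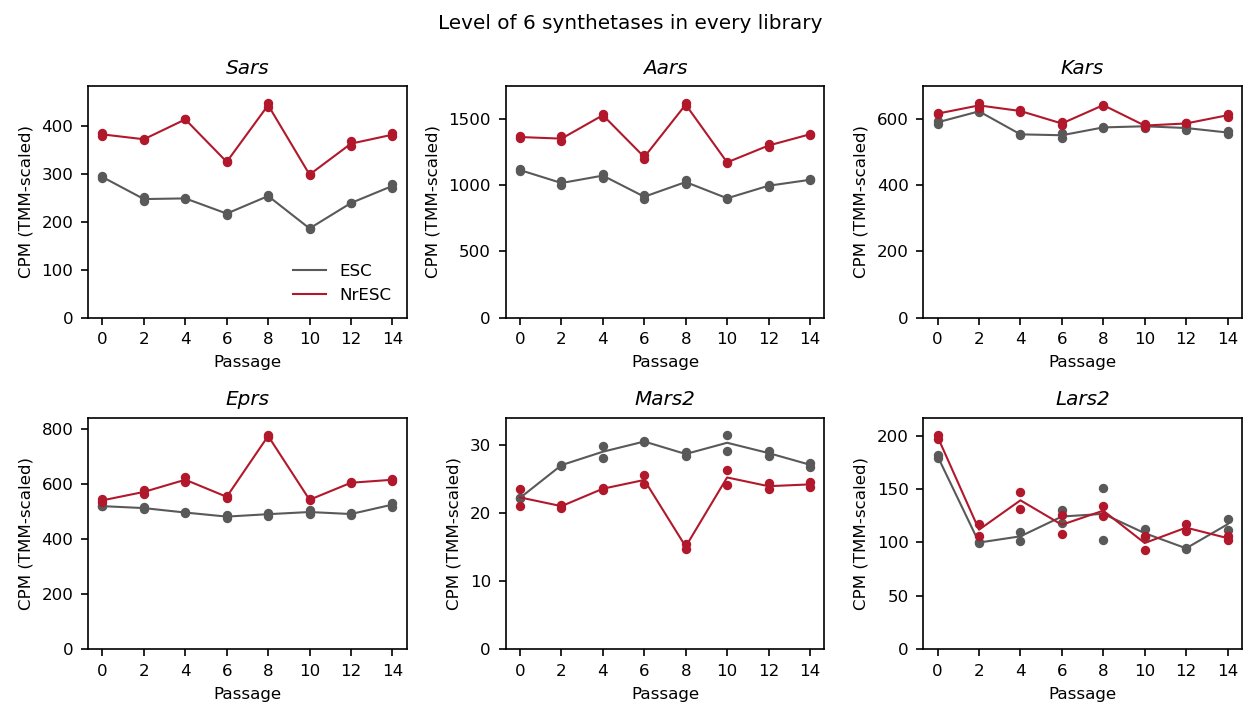
TMM-scaled CPM of 6 synthetases by passage; each point is 1 library, lines join the means of 2 libraries, and each axis starts at 0. Sars, Aars and Eprs are higher in NrESC at every passage, Kars differs little, Mars2 is lower from passage 2 on, and Lars2 is highest at passage 0 in both arms.

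Enzymes for the same amino acid in the 2 compartments were set side by side in 17 pairs, as the log2 ratio of the cytosolic to the mitochondrial gene in CPM. The change of this ratio between arms was described over the 8 passages without a test. It was positive in the mean for 14 pairs, positive at 8 of 8 passages for 9 pairs, and negative at 8 of 8 for 1 pair. Eprs and Fars2 each stood in more than 1 pair, and the counts restate the differences of the single genes given above. The largest changes were 0.77 ± 0.38 (SD over 8 passages) for Mars over Mars2, 0.71 ± 0.24 for Sars over Sars2 and 0.60 ± 0.13 for Cars over Cars2. Both members contributed in these pairs, since the cytosolic gene was higher and the mitochondrial one lower. In the valine pair both genes were higher to a like extent, and the ratio changed by 0.01 ± 0.040. The phenylalanine pairs went the other way, at -0.34 ± 0.19 for Farsa over Fars2 and -0.16 ± 0.13 for Farsb over Fars2. The counts were also 9 and 1 without passage 8 and with TPM in place of CPM.

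Single passages were then compared. At passage 0, 13 of 20 cytosolic members were higher in NrESC and 2 lower, and 3 of 16 mitochondrial members were higher and 1 lower, against 17.6% of all genes higher and 14.8% lower. Passage 2 gave 14 and 2 cytosolic and 6 and 4 mitochondrial calls (24.7% and 23.8% of all genes). For passage 4 these were 18 and 0, and 6 and 3 (27.4% and 26.9%). The cytosolic calls as higher thus outnumbered those as lower from the start, while the mitochondrial ones were fewer and of both directions. Passage 6 gave 15 and 2, and 4 and 4 (23.6% and 25.1%). For passage 8 the counts were 17 and 3, and 5 and 6 (35.2% and 34.6%). Passage 10 gave 13 and 2, and 3 and 5 (27% and 28.5%). At each of passages 2 to 10 the genes called higher in the cytosolic class included the whole ATF4 list. For passage 12 the counts were 14 and 1, and 5 and 5 (23.1% and 24%), and passage 14 gave 15 and 1, and 5 and 2 (19.7% and 21.3%). In either direction, 32.4%, 48.5%, 54.3%, 48.7%, 69.8%, 55.5%, 47.1% and 41% of all genes were called at passages 0 to 14. The median difference of the cytosolic class was 0.14 at passage 0, 0.40 at passage 8 and between 0.15 and 0.35 at the others, and that of the mitochondrial class stayed between -0.08 and 0.10. In the ATF4 list 11 of 13 were called higher at passage 0, all but Eprs (0.06) and Tars (0.03), and 13 of 13 at each later passage.

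The sign held at 8 of 8 passages, as positive, for 14 cytosolic members and for Aars2 and Vars2 of the mitochondrial ones (20.1% of all genes). By the fitted values it held as negative for Dars, Farsa, Cars2, Mars2, Wars2 and Yars2 (18% of all genes). The value of Mars2 at passage 0 was -0.01, and there its mean CPM was 22.2 in ESC and 22.3 in NrESC, so its negative sign rests on the later passages. A call as higher at all 8 passages was made for 11 cytosolic members and Aars2, against 6.44% of all genes. Members called in opposite directions at different passages were Qars and Rars of the cytosolic class and Pars2 of the mitochondrial class. Libraries of 1 group differed little: the SD of log2 CPM within groups had a median of 0.021 over cytosolic and 0.051 over mitochondrial members. Between ESC passages the median SDs were 0.096 and 0.12, and between NrESC passages 0.099 and 0.16. The difference between arms varied among passages, by edgeR's quasi-likelihood test with 1 term per passage, for 33 of 36 members, against 69.4% of all genes. The exceptions were Dars (adjusted p = 0.12), Hars (adjusted p = 0.0698) and Nars2 (adjusted p = 0.567). Without passage 8, 28 of 36 varied, against 52.2% of all genes.

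**Figure D4:**
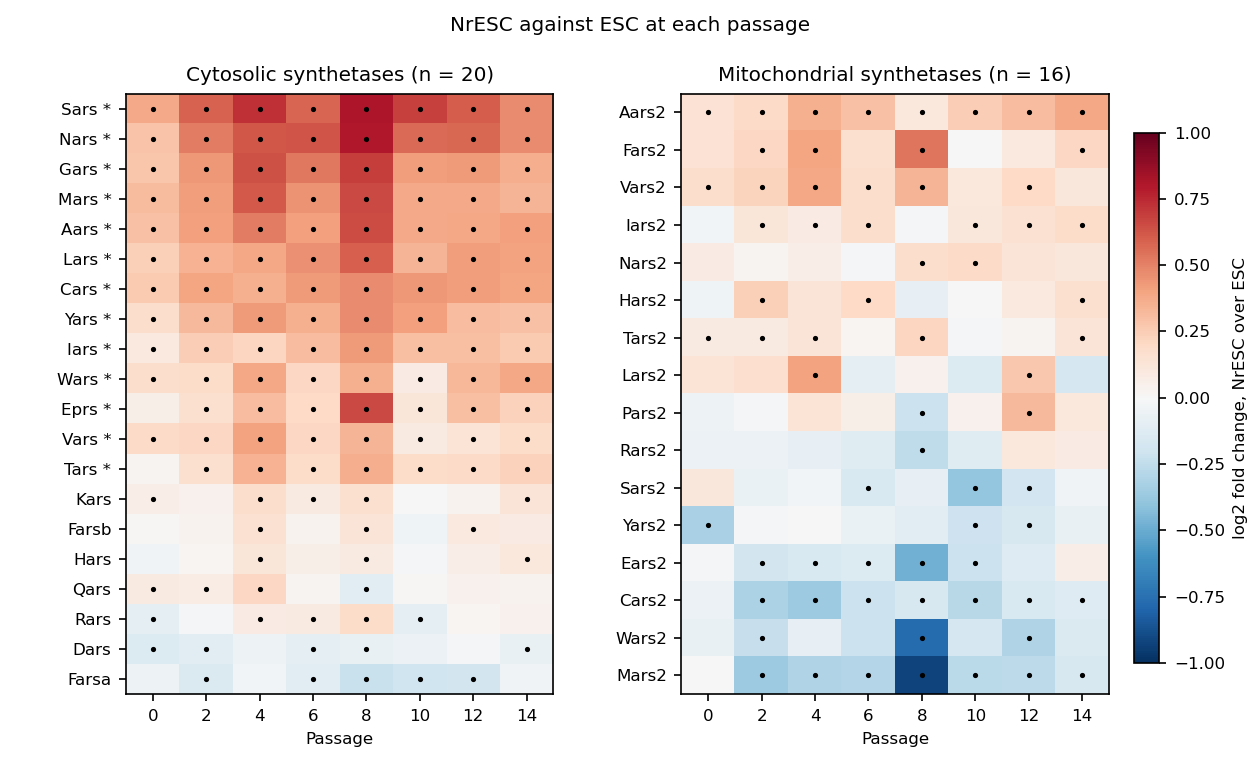
Log2 fold change, NrESC over ESC, at each passage for the 20 cytosolic (left) and 16 mitochondrial (right) synthetases, ordered by the mean of 8 passages; a dot marks an adjusted p under 0.05 and a star a gene of the ATF4 list. The starred genes are positive at every passage, with most of their highest values at passage 8, and Mars2 and Wars2 have their lowest values at passage 8.

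NrESC of passage 8 was set against its neighbouring passages. Compared with NrESC of passages 6 and 10, 16 cytosolic members were higher and 3 lower, and 4 mitochondrial members were higher and 9 lower, 32 calls in all. Of all genes 69.8% were called, 36.9% as higher and 32.8% as lower. Eprs had 770 and 780 CPM at passage 8 and 542 to 557 CPM in the 4 libraries of passages 6 and 10 (step 0.50, SE 0.019). Sars had 447 and 438 CPM at passage 8 and 298 to 326 CPM beside it (0.51, SE 0.020). Mars2 had 14.7 and 15.4 CPM at passage 8 and 24.1 to 26.3 CPM beside it (-0.73, SE 0.053). In all 3 genes the libraries of passage 8 lay apart from those of the neighbouring passages.

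Wars2 had 3.79 and 4.39 CPM at passage 8 and 6.55 to 7.43 CPM beside it (-0.79, SE 0.092). Ears2 (-0.47), Pars2 (-0.43), Aars2 (-0.35), Rars2 (-0.31) and Hars2 (-0.31) were also lower at passage 8 of NrESC, whereas Fars2 (0.35), Vars2 (0.33), Lars2 (0.27) and Nars2 (0.20) were higher. So the mitochondrial class held members of both signs, with a median of -0.21, while all 13 of the ATF4 list were higher, with a median of 0.31. The median of all genes was 0.03.

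ESC moved in part the same way. At passage 8 of ESC against its passages 6 and 10, 10 cytosolic members were higher and 4 lower, and 2 mitochondrial members were higher and 10 lower (26 calls), with Sars at 0.34 and Aars at 0.18. Of all genes 44.6% were called, 22.4% as higher and 22.3% as lower. The difference of the steps, NrESC minus ESC, was called for 27 of 36 members: 15 cytosolic higher and 1 lower (Qars), and 4 mitochondrial higher and 7 lower. Of all genes 49.5% were called, 24.4% as higher and 25.2% as lower. This comparison was added after the data were seen. It was largest for Mars2 (-0.65, SE 0.072), Wars2 (-0.58, SE 0.13), Eprs (0.50, SE 0.028) and Fars2 (0.46, SE 0.094). Eprs had no step in ESC that passed the test (0.00, adjusted p = 0.964, edgeR).

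**Figure D5:**
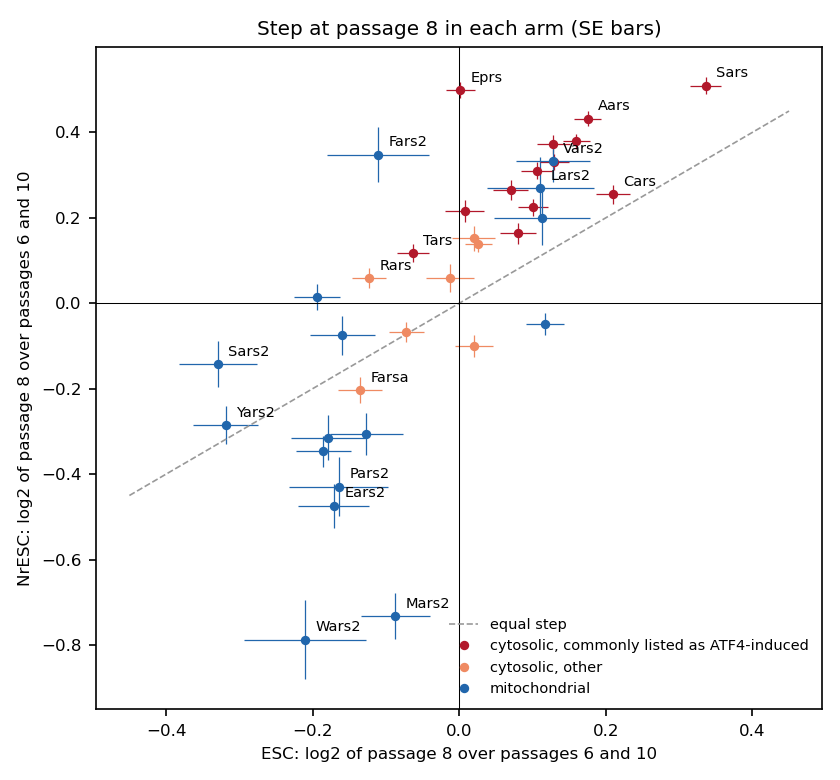
Log2 step at passage 8 over passages 6 and 10 in ESC (horizontal) and NrESC (vertical) for the 36 synthetases, with SE bars; the dashed line marks equal steps. Eprs and Fars2 lie above the line and Mars2 and Wars2 below it, with ESC steps of 0.00, -0.11, -0.09 and -0.21.

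Over passage number, 25 members had a called slope in ESC, of which 13 cytosolic and 10 mitochondrial members declined and 2 mitochondrial members rose. Of all genes 55.4% were called, 27.2% rising and 28.2% declining. In NrESC 27 had one, with 5 cytosolic and 4 mitochondrial members rising and 10 and 8 declining (59.9% of all genes, 28.6% rising and 31.3% declining). The slopes differed between arms for 13 members, 9 with a higher and 4 with a lower slope in NrESC (25.4% of all genes, 11.3% and 14.2%). With passage as the unit, 0 members had a called slope in ESC, in NrESC or in the difference (0.479%, 2.4% and 0.0133% of all genes). A single high passage weighed on these slopes: Lars2 had 179 and 182 CPM in ESC and 201 and 197 CPM in NrESC at passage 0, and 92.4 to 151 CPM in all libraries of later passages.

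Genes listed with the ATF4 response were set beside the cytosolic class as a description, and their part in its values was not tested. Of 33 listed genes of the integrated stress response, 32 were higher in NrESC in the mean of 8 passages and 1 lower. Their median was 0.74, with a range of -0.27 to 1.55. Of all 15036 genes tested, 5880 were higher and 5988 lower. Atf4 itself had 270, 300 and 345 CPM in ESC and 424, 451 and 502 CPM in NrESC, without overlap, a difference of 0.59 (SE 0.0093, adjusted p = 6.1e-40, edgeR). Asns, asparagine synthetase, was higher by 0.41, Trib3, a pseudokinase induced by ATF4, by 1.17, and Chac1, a glutathione-degrading enzyme, by 1.45. Ddit3, which encodes the stress factor CHOP, was higher by 1.27, and at passage 8 alone by 3.44. In summed TPM the 33 genes were lowest at passage 6 in both arms, as the cytosolic synthetases were. Their highest passages were 14 in ESC and 8 in NrESC, again the same as for the synthetases. In ESC passage 10 lay close to the lowest (3810 and 3808 TPM, against 3832 and 3768 at passage 6). The cytosolic members outside the ATF4 list were also lowest in summed TPM at passage 6 in both arms. By CPM, Atf4, Ddit3, Trib3 and Chac1 were highest in NrESC at passage 8, but Asns at passage 2. In ESC each of these genes was highest at passage 0, not 14. Atf4 was lowest at passage 8 in ESC and at passage 10 in NrESC. In both arms Asns, Trib3 and Chac1 were lowest at passage 10 and Ddit3 at passage 6. Sesn2, another stress response gene, was lowest in NrESC at passage 8. At that passage 30 of the 33 were higher in NrESC and 3 lower, against 5291 and 5199 of all 15036 genes. The motif TGATGNAA was in 9 of the 29 windows matched to these 33 genes, and its share of all windows is given above.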

How the data were processed

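Polyadenylated RNA of 16 groups with 2 libraries each was used. The authors deposited 2 tables with 1 row per gene symbol: expected counts, not normalized, which the file headers name as RSEM output, and TPM, which the authors scaled for gene length and library. The submitters' processing notes name build mm9 and the tools RSEM, STAR, HTSeq 0.12.4, Cufflinks 2.2.1, edgeR and DESeq2. The role of each tool, the annotation and the strand setting are not given in the sources used here. Reads that fit several genes are divided by RSEM, and 0.837% of all expected counts were fractional, but 0 of the 1152 values of the members were. Counts were rounded.

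Genes were filtered with filterByExpr, which left 15036, and scaled by TMM. All 32 libraries entered 1 quasi-likelihood fit in edgeR 4.0.16 (with limma 3.58.1 and R 4.3.3), in which each group had its own mean and 16 residual degrees of freedom remained. The scripts were tested on simulated data. The contrasts set NrESC against ESC at each passage and averaged over 8 passages, with its variation among passages, slopes, and passage 8 against passages 6 and 10. Benjamini-Hochberg adjustment ran over all genes tested, with a threshold of 0.05. SE values come from this model and cover only the spread within groups. CPM values are counts scaled by TMM library size. Promoter motifs were searched by exact letters in RefSeq windows of build GRCm38.p6, a build other than that of the counts. Exon overlap was taken from GENCODE M21. No promoter window was matched for Cars, Hars, Lars, Nars, Rars, Vars, Wars, Hars2 and Pars2.

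The 36 members and the gene lists were chosen with earlier results of these data known. Every member could be named, with full statistics for the 8 called members of largest fold change in each class and comparison where the text turns on them, together with fixed genes of the stress response and complex. Lists are described by counts and medians beside those of all genes, with no test of a list. Alternatives were other scalings, filters, DESeq2 1.42.0, limma on log2(TPM + 1), passage as the unit, the replicate block, and leaving out libraries or passages 0 and 8. For passage as the unit, both libraries of a group were added up, giving 16 units. The mean of 8 passages was fitted with passage as a block (7 residual degrees of freedom). Slopes were fitted on passage number in each arm, without that block (12 residual degrees of freedom). 1 result is not reported here.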

Additional observations from a re-analysis of the deposited data

Results flagged for a closer look

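The difference between the arms varied among passages for 33 of the 36 synthetases by a test of the interaction of arm and passage. Of all 15036 genes tested, 10436 varied by the same test. The slope over passages differed between arms for 13 members with libraries as the unit (3823 of all 15036 genes), and for 0 with passage as the unit. The step at passage 8 differed between arms for 27 members (7447 of all 15036 genes). The values of Mars2, Wars2, Eprs and Fars2 at that passage are the largest of these. Beside them, Ddit3 had a step that differed between arms by 2.38, and Aimp2, a scaffold protein of the multi-tRNA synthetase complex, by -0.36. Their part in the synthetases' values was not tested.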

How the results depend on the processing

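In the mean of 8 passages no member changed sign under any alternative run. The 36 calls or non-calls were unchanged for 36 members with either other filter, upper-quartile scaling or the replicate block, for 35 with RLE scaling, for 34 with DESeq2 and with limma on log2(TPM + 1), for 35 without passage 0, for 33 without passage 8 and for 27 with passage as the unit. Rars and Lars2 accounted for the changes under DESeq2 and limma. With passage as the unit, mitochondrial members called higher numbered 5 in place of 8. Members with a called slope numbered 0 in ESC, 0 in NrESC and 0 for the difference with passage as the unit. In ESC they numbered 8 without passage 0 (40.1% of all genes) and 13 over passages 4 to 14 (32%), and in NrESC 14 over passages 4 to 14 (36.4%), a range added after the data were seen. The mitochondrial class level, 0.01 as log2 of summed TPM, was -0.10 as a median of log2(TPM + 1) and -0.10 with 0.1 added, so its direction depends on the summary. Cytosolic windows with TGATGNAA numbered 3 with the 250 bases before the start. At passage 4, limma on log2(TPM + 1) gave -0.00234 for Rars and -0.000331 for Iars2, against 0.08 for each. Leaving out 1 library at a time gave 34 to 36 calls in the mean, 18 cytosolic members higher each time, 14 to 19 calls at passage 0, 26 to 31 at passage 8, 17 to 24 at passage 14, 32 to 35 for the variation, and 22 to 27 for the step difference. Replicate numbers did not pair the libraries: deviations of same-numbered libraries from their group means correlated at -0.183 to 0.0391 over 8 passages, none over 0.1. With the replicate block, 35 members were called in the mean of 8 passages, as without it, and no count of calls moved by more than 1.5 times. The lowest count of a member in any library was 140, so counting error is largest for the mitochondrial class.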

Other observations

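Other lists of the tRNA pathway are given by their counts in the mean of 8 passages, beside 39.1% of all genes higher and 39.8% lower. No difference between lists was tested, and the shares of several are near those of all genes. Of 20 listed genes of tRNA maturation (RNase P subunits, splicing endonuclease and others), 5 were higher in NrESC and 11 lower, with a median of -0.06. Rpp25, an RNase P subunit, fell by 0.46 and Pop1, its large protein subunit, by 0.31. Of 9 mitochondrial translation factors 4 were higher and 4 lower (median 0.05), with Tufm, the mitochondrial elongation factor Tu, at -0.16. Of 13 genes of mitochondrial tRNA maturation and modification 4 were higher and 5 lower (median 0.02). Of 5 cytosolic elongation factors 2 were higher, Eef1a1 by 0.17, and 3 lower. Xpot, the exporter of mature tRNA, was higher by 0.06. Of 10 tested genes of charging help and editing 3 were higher and 4 lower, with Pstk, a kinase of selenocysteine synthesis, higher by 0.50 and Gatb, of the mitochondrial glutamine route, lower (-0.17). Of the 4 eIF2 alpha kinases, Eif2ak4, which senses uncharged tRNA, was higher by 0.21 and Eif2ak1 fell by 0.20. The other two, Eif2ak2 (-0.00) and Eif2ak3 (-0.02), were not called.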
